A study of Drosophila melanogaster with 19 samples.

Results

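The 9 cuticle protein genes of *Drosophila melanogaster* described here, Cpr49Ac, Cpr49Ae, Cpr49Ag, Cpr62Bb, Cpr62Bc, Cpr97Ea, Lcp1, Lcp3 and Lcp65Ag3, were followed across dissected tissues of flies that overexpressed a POU domain transcription factor. They were chosen by name and were read by 10 of the 32162 probes of the array, 1 probe a gene and 2 for Lcp65Ag3. Cuticle is the layered exoskeleton that epidermal cells secrete at their apical surface, and cuticle proteins of the CPR family bind its chitin fibres through the Rebers and Riddiford consensus. Tracheae, foregut and hindgut, which are of ectodermal origin, are lined with cuticle too. The midgut has no cuticle and is lined by the peritrophic matrix, a chitin-containing sheet. Most cuticle proteins are made around the moults and at eclosion, so an adult of several days is past the main period of their synthesis.

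Total RNA of female flies aged 10 days and kept as adults at 25 °C was hybridized to 19 one-color Agilent arrays. Replicates were independent pools of flies, and the sources used here do not give whether the gut and rest arrays of 1 number came from the same pool. Dissection gave "gut", the digestive system, and "rest", the fly without gut and head. The driver c564-Gal4, active in fat body and midgut among other tissues, was combined with UAS-nub-RB (c564>nub-RB), with UAS-Pdm2-RB (c564>Pdm2-RB), or with no UAS target (c564>+), so all 3 genotypes carried the driver. The sample labels name the c564>+ flies w1118 and spell the driver c546, whereas the series description and the methods write c564. Each group had 3 arrays, apart from c564>nub-RB rest, which had 4. Any 1 probe's signal in such bulk tissue cannot tell fewer expressing cells from less RNA in each cell.

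Signals are quantile-normalized and have no unit. Over the arrays the median signal before normalization was 35.4 to 245, and 65.2% to 83.8% of the probes were well above background. Both nub probes were higher on every c564>nub-RB array than on every c564>+ array of the same tissue, and no pdm2 probe could be named. The signal of nub probe A_09_P048246 was 20.1 to 37.4 in c564>nub-RB rest against 1.70 to 8.94 in c564>+ rest, and 114 to 259 in c564>nub-RB gut against 31.8 to 53.1 in c564>+ gut. On the c564>Pdm2-RB gut arrays both nub probes also lay above every c564>+ gut array. There A_09_P048246 had 62.6 to 113, and A_09_P161260 had 93.0 to 158, overlapping its 143 to 331 in c564>nub-RB gut. In rest both probes overlapped between c564>Pdm2-RB and c564>+. Digestive enzyme genes of the midgut marked the tissues, with summed signals of 19 probes between 4.86e+06 and 5.45e+06 in the 9 gut arrays. In rest this sum was 443382 to 1.20e+06 in c564>+, 3322 to 400526 in c564>nub-RB and 3841 to 91354 in c564>Pdm2-RB, so gut transcripts were present in some rest arrays. The probes summed were of 16 of 35 listed genes. Some of them, Jon25Bi and Jon25Bii included, were named through the study's list of proteolysis genes changed between c564>nub-RB and c564>+ in rest. The order of the genotypes in this rest sum is therefore not free of the naming. Of the 6 listed epidermis and trachea genes only verm could be named, with a signal of 20.7 to 25.6 in c564>+ rest and 21.7 to 29.1 in c564>nub-RB rest. None of the 7 listed foregut and hindgut genes and none of the 15 ovary genes could be named. Of 10 listed head genes 1 was named, with 3520 in c564>+ gut replicate 1 and 1300 in c564>Pdm2-RB gut replicate 1. On the other gut arrays it had 3.37 to 49.6. The yellow family gene yellow-g2 also varied within gut, from 5.11 to 11970 in c564>+ gut, beside 27667 to 38309 in c564>+ rest. Whether other tissue was carried into the gut samples was not tested.

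How the members got their names limits what the data say. The array lists most probes by an identifier alone, and 9 of the 10 probes were named through the 996 rows read of the table of all probes that accompanies the study. Those rows are the 996 probes with the highest ratio of mean signals in c564>nub-RB rest over c564>+ rest. The lowest ratio among them was 2.6064 and the highest outside was 2.60493. The higher signal of these 9 probes in c564>nub-RB rest is therefore how they came to be named, and is no finding. Probe A_09_P220620 of Lcp65Ag3 lay just inside with a ratio of 2.61 and rank 992, followed inwards by Cpr62Bb with 2.62 and rank 984. Cpr49Ac had the highest ratio of the 10, 24.1 at rank 67. Cpr49Ag, named through its RefSeq accession, had a ratio of 1.07 and rank 12437, and it is the 1 member free of this choice. Other cuticle protein genes on the array could not be named and were not analysed here.

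A probe was tested where its mean signal passed 130 in a compared group, and 5 of the 10 probes passed in at least 1 of the 6 groups. These were Cpr49Ae, Cpr49Ag and Cpr62Bb in all 6 groups, Cpr62Bc in 2 groups and A_09_P220620 in 1 group. The same 5 probes were well above background on all 19 arrays. Cpr49Ac was so on 16 arrays, A_09_P048851 on 15, Lcp1 on 13, Cpr97Ea on 11 and Lcp3 on 8. Signals of different probes cannot be ranked against each other, so each probe is compared only with itself.

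**Figure D1:**
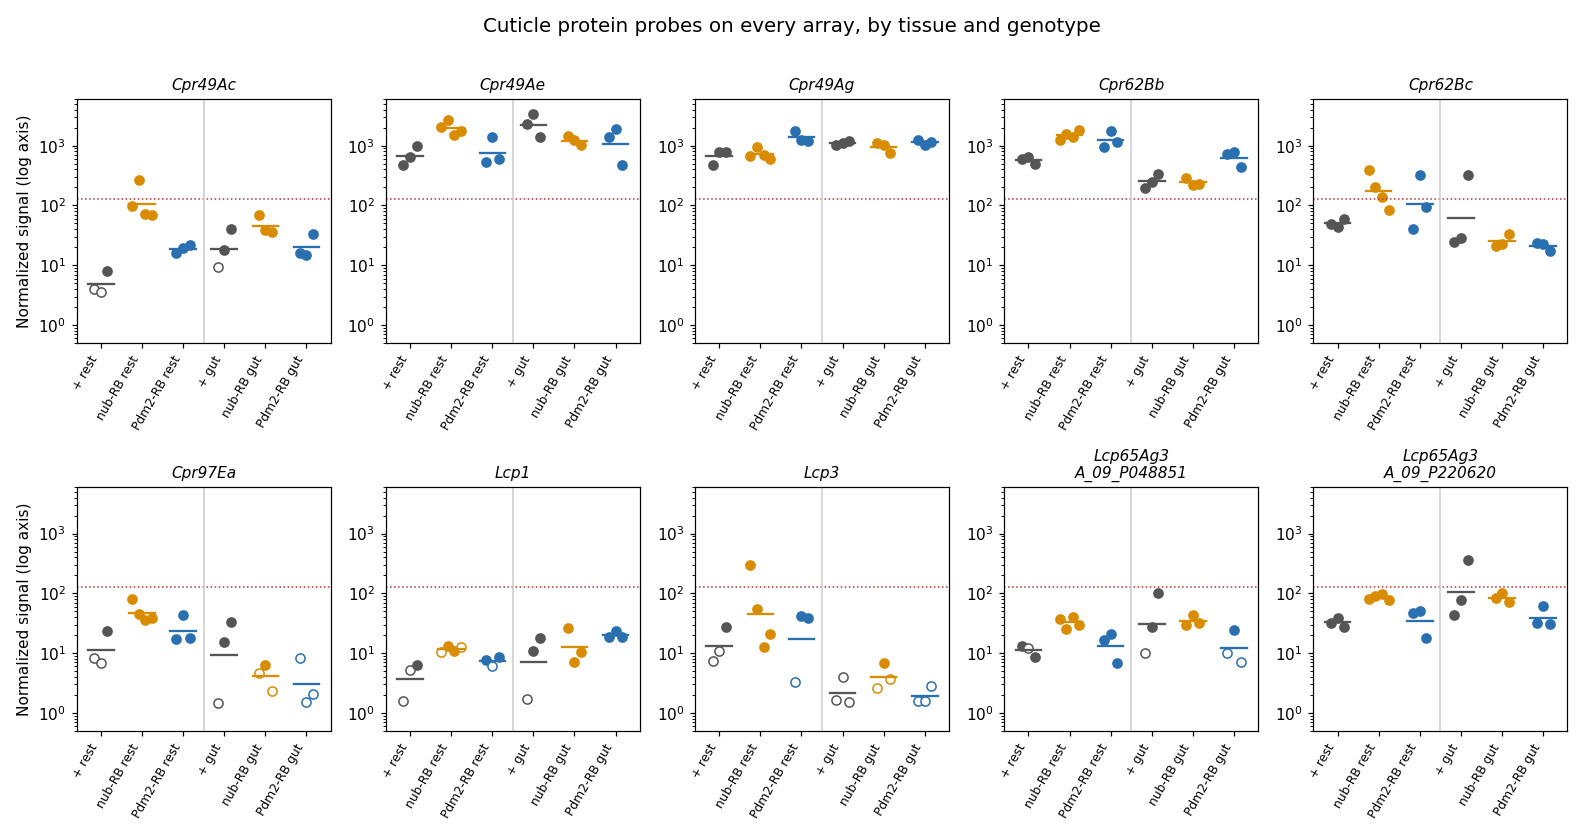
Normalized signal (log axis) of the 10 cuticle protein probes on every array. Points are arrays in replicate order, filled where the probe was well above background and open where it was not, horizontal bars are means of log2 signals, and the dotted line is the testing threshold of 130. Cpr49Ae, Cpr49Ag and Cpr62Bb lie above the line on all arrays, and the other 7 probes lie below it on most.

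The cluster at 49A holds Cpr49Ac, Cpr49Ae and Cpr49Ag. In the reference annotation 3 protein-coding genes lie between Cpr49Ac and Cpr49Ae, and 1 between Cpr49Ae and Cpr49Ag. All 3 encode chitin-binding structural proteins of the CPR family.

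For Cpr49Ae, tested in all 3 genotypes, rest minus gut had opposite signs in c564>+ and c564>nub-RB, without overlap in either. Its signal in c564>+ was 469, 639 and 977 in rest and 2306, 3426 and 1381 in gut. In c564>nub-RB it was 2076, 2714, 1492 and 1762 in rest and 1474, 1223 and 1008 in gut. Each rest array thus lay below every gut array in c564>+, and above every gut array in c564>nub-RB. In c564>Pdm2-RB the signals were 532, 1393 and 602 in rest and 1395, 1922 and 469.6 in gut, and the tissues overlapped. By mean log2 signal the order from high to low was c564>+ gut (11.11 ± 0.66, SD), c564>nub-RB rest (10.94 ± 0.37), c564>nub-RB gut (10.25 ± 0.27), c564>Pdm2-RB gut (10.08 ± 1.07), c564>Pdm2-RB rest (9.58 ± 0.76) and c564>+ rest (9.38 ± 0.53). Neighbours in this order differed by less than the spread of at least 1 of them, except c564>nub-RB rest and gut, whose arrays did not overlap.

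Rest minus gut for Cpr49Ae came to -1.74 on the log2 scale in c564>+ (SE 0.41, adjusted p = 0.0101, limma), 0.68 in c564>nub-RB (SE 0.24, adjusted p = 0.0317, limma) and -0.50 in c564>Pdm2-RB (SE 0.63, adjusted p = 0.492, limma). The difference between the first 2 of these was 2.42 (SE 0.49, adjusted p = 0.0184 in limma's interaction term). None of the 4 passed the false discovery rate of 1%, and the first missed it narrowly. Without c564>+ gut replicate 4 rest minus gut in c564>+ was -2.08 and passed, with an adjusted p of 0.00592 in limma, and over 15 alternatives that adjusted p ran from 0.00492 to 0.0358. The c564>+ rest arrays enter the interaction, so it is not free of the choice by name.

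Cpr49Ag, which owed its name to no ranking, ranged from 479 to 1788, a 3.74-fold span that was the narrowest of the 10 probes. Its signals were 479, 771 and 798 in c564>+ rest, 673, 957, 687 and 602 in c564>nub-RB rest, and 1788, 1257 and 1193 in c564>Pdm2-RB rest. The c564>+ and c564>nub-RB arrays overlapped and all 3 c564>Pdm2-RB arrays lay above both. In gut it had 1028, 1094 and 1216 in c564>+, 1116, 1028 and 744 in c564>nub-RB, and 1237, 1027 and 1173 in c564>Pdm2-RB. The 3 genotypes overlapped there.

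Against c564>+ rest the c564>Pdm2-RB rest level of Cpr49Ag was 1.06 higher on the log2 scale (SE 0.26, adjusted p = 0.0989, limma), and against c564>nub-RB rest it was 0.95 higher, with an adjusted p of 0.0544 for that comparison in limma. Neither passed 1%. Rest minus gut was -0.74 in c564>+ (SE 0.23, adjusted p = 0.0269, limma), -0.40 in c564>nub-RB (SE 0.21) and 0.28 in c564>Pdm2-RB (SE 0.19), and none of these passed. In c564>+ the 3 rest arrays were all below the 3 gut arrays.

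Cpr49Ac was close to background in c564>+ rest and spanned 74.1-fold over the arrays. It had signals of 4.06, 3.54 and 7.91 in c564>+ rest, of which only the last was well above background, and 96.7, 262, 72.7 and 68.1 in c564>nub-RB rest. In c564>Pdm2-RB rest they were 16.3, 19.1 and 21.7, above every c564>+ rest array and below every c564>nub-RB rest array. The gut arrays gave 9.41, 18.0 and 40.8 in c564>+, 69.5, 39.4 and 35.6 in c564>nub-RB, and 15.9, 15 and 32.9 in c564>Pdm2-RB.

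No group mean of Cpr49Ac passed 130, so it was not tested. Its log2 differences from c564>+ rest were 4.45 in c564>nub-RB rest, the contrast that named it, and 1.96 in c564>Pdm2-RB rest, where the no-threshold fit gave an adjusted p of 0.0649 in limma. In gut the c564>nub-RB difference from c564>+ was 1.27, with overlapping arrays. Rest minus gut was -1.98 in c564>+, with every rest array below every gut array, 1.20 in c564>nub-RB and -0.07 in c564>Pdm2-RB, with overlap in the last 2.

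At 62B the genes Cpr62Bb and Cpr62Bc are direct neighbours, with 0 protein-coding genes between them, and both encode CPR family proteins. Cpr62Bb was the member called most often. Its signals were 595, 636 and 499 in c564>+ rest, 1228, 1590, 1421 and 1808 in c564>nub-RB rest, and 956, 1772 and 1140 in c564>Pdm2-RB rest. In gut they were 195, 249 and 333 in c564>+, 283, 219 and 231 in c564>nub-RB, and 727, 774 and 435 in c564>Pdm2-RB. Rest lay above gut without overlap in each genotype. By mean log2 signal the order was c564>nub-RB rest (10.55 ± 0.24, SD), c564>Pdm2-RB rest (10.28 ± 0.46), c564>Pdm2-RB gut (9.29 ± 0.46), c564>+ rest (9.16 ± 0.18), c564>+ gut (7.98 ± 0.39) and c564>nub-RB gut (7.92 ± 0.19). Arrays overlapped between c564>nub-RB rest and c564>Pdm2-RB rest, between c564>Pdm2-RB gut and c564>+ rest, and between c564>+ gut and c564>nub-RB gut, and between no other neighbours.

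Rest minus gut for Cpr62Bb was 1.18 on the log2 scale in c564>+ (SE 0.23, adjusted p = 0.00417, limma), 2.62 in c564>nub-RB (SE 0.17, adjusted p = 2.29e-05, limma) and 0.99 in c564>Pdm2-RB (SE 0.32, adjusted p = 0.0303, limma). Cpr62Bb was thus called higher in rest in c564>+ and in c564>nub-RB. Within the 2 scan dates the c564>+ difference was 0.79 and 1.66. The 1 date that held both tissues of c564>nub-RB gave 2.71, from 1 rest and 3 gut arrays. The c564>+ call was lost when c564>+ rest replicate 1 or 3 or c564>+ gut replicate 3 was left out, with values of 1.16, 1.11 and 1.17. The interaction of genotype and tissue was 1.44 for c564>nub-RB (SE 0.29, adjusted p = 0.0177, limma), which did not pass. Both the c564>nub-RB and the c564>+ rest arrays entered the ratio that named the probe. Neither the c564>nub-RB difference nor the interaction is therefore free of the naming.

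In gut, c564>Pdm2-RB had the 3 highest Cpr62Bb arrays. The difference from c564>+ gut was 1.31 (SE 0.30, adjusted p = 0.107, limma). The direct difference, c564>nub-RB minus c564>Pdm2-RB, was -1.36 (SE 0.26, adjusted p = 0.113, limma). Neither was called, although the groups did not overlap. These gut arrays had no part in the ranking that named the probe.

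In rest, Cpr62Bb was 1.38 higher in c564>nub-RB than in c564>+ (SE 0.16, adjusted p = 0.00272, limma), a difference whose direction the naming fixed. It lost its call without c564>+ rest replicate 1 (1.41) or 4 (1.28). For c564>Pdm2-RB rest the difference from c564>+ was 1.12 (SE 0.25, adjusted p = 0.0775, limma), not called.

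Cpr62Bc was near its lowest level in gut, with 1 exception. Its signals were 49.9, 43.9 and 60.3 in c564>+ rest, 396, 206, 139 and 83.4 in c564>nub-RB rest, and 40.2, 319.5 and 95.2 in c564>Pdm2-RB rest. The gut arrays gave 24.5, 29.0 and 326 in c564>+, 21.2, 22.5 and 33.7 in c564>nub-RB, and 23.8, 22.7 and 17.1 in c564>Pdm2-RB. Replicate 4 of c564>+ gut stood far above the other gut arrays.

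Rest exceeded gut by 2.80 on the log2 scale for Cpr62Bc in c564>nub-RB (SE 0.50, adjusted p = 0.00207, limma), which was called, and by 2.35 in c564>Pdm2-RB (SE 0.73, adjusted p = 0.0259, limma), which was not. In both genotypes the tissues did not overlap. Cpr62Bc passed the threshold for testing in these genotypes through rest alone, and such a filter favors that direction. The c564>nub-RB rest arrays also entered the ratio that named this probe. The c564>nub-RB call did not hold with scan date as a block (3.03, adjusted p = 0.0271, limma), 3 of the 4 rest arrays being of 1 date and all gut arrays of the other, nor in 3 of the other 15 alternatives. Over all 16 the adjusted p in limma ran from 0.00132 to 0.0271. In c564>+, where the probe stayed under the threshold, rest minus gut was -0.27, and 0.93 without gut replicate 4.

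**Figure D2:**
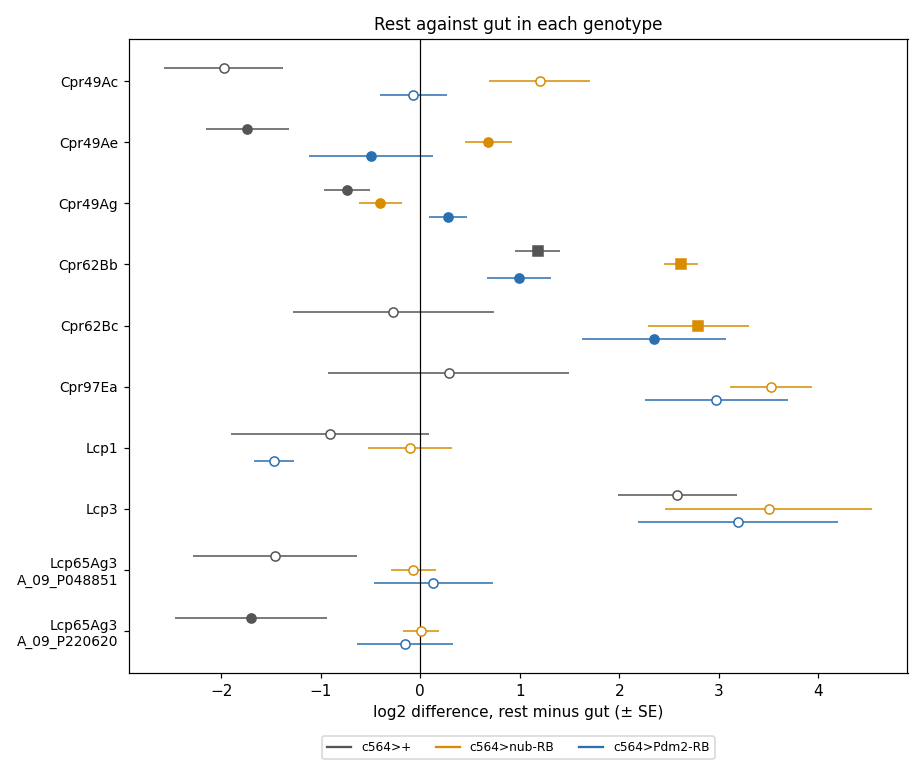
Difference of mean log2 signal, rest minus gut (x axis, ± SE), for each probe (y axis) in the 3 genotypes. Squares were called, filled circles were tested and not called, and open circles stayed under the threshold, with the SE of the fit without a threshold. Cpr62Bb lies right of 0 in all genotypes, and Cpr49Ae lies at -1.74 in c564>+ and at 0.68 in c564>nub-RB.

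Cpr97Ea, another CPR family gene, was never above 130. Its rest signals were 8.39, 6.98 and 23.9 in c564>+, 81.4, 45.2, 35.7 and 38.7 in c564>nub-RB, and 17.1, 43.0 and 17.9 in c564>Pdm2-RB. In gut it gave 1.48, 15.4 and 33.9 in c564>+, 4.71, 6.30 and 2.37 in c564>nub-RB, and 8.46, 1.53 and 2.10 in c564>Pdm2-RB. Rest was above gut on all arrays of both overexpressing lines, while the c564>+ tissues overlapped.

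No c564>Pdm2-RB gut array was well above background for Cpr97Ea. Set against the lowest signal well above background on each array, its level in c564>Pdm2-RB rest was at least 3.31-fold higher than in gut. The c564>nub-RB difference, rest minus gut, was 3.52, with an adjusted p of 0.000581 in limma's fit without a threshold. Only 1 of the 3 gut arrays there was well above background, and the rest arrays entered the ratio that named the probe. Over the 19 arrays the log2 signal of Cpr97Ea had a Pearson correlation of 0.85 with that of Cpr62Bc. Between the neighbours Cpr62Bb and Cpr62Bc the correlation was 0.60. The arrays share 6 groups, so these are descriptions only.

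Lcp1, Lcp3 and Lcp65Ag3 are named for the larval cuticle, in which Lcp1 and Lcp3 are abundant, and all 3 carry the same chitin-binding consensus. Lcp1 and Lcp3 lie in 1 cluster with 1 protein-coding gene between them. No group mean of either passed 130 in these adults.

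Lcp1 had signals of 1.61, 5.19 and 6.34 in c564>+ rest, 10.3, 13.4, 11 and 12.6 in c564>nub-RB rest, and 7.72, 6.01 and 8.51 in c564>Pdm2-RB rest. The gut gave 1.73, 11 and 18.3 in c564>+, 26.9, 7.23 and 10.4 in c564>nub-RB, and 18.8, 23.9 and 18.8 in c564>Pdm2-RB. It was the 1 member whose c564>Pdm2-RB arrays were all higher in gut than in rest, with rest minus gut of -1.47. The fit without a threshold gave that difference an adjusted p of 0.00162 in limma.

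Lcp3 differed from Lcp1 in its tissue pattern. It gave 7.54, 10.73 and 26.9 in c564>+ rest, 296, 54.5, 12.5 and 21.0 in c564>nub-RB rest, and 3.31, 42.1 and 38.5 in c564>Pdm2-RB rest. In gut it was 1.63, 4.01 and 1.55 in c564>+, 2.58, 6.87 and 3.64 in c564>nub-RB, and 1.59, 1.56 and 2.82 in c564>Pdm2-RB, and 1 of these 9 arrays was well above background. All rest arrays were above all gut arrays within each genotype. Only 1 of 3 rest arrays in c564>+ and 2 of 3 in c564>Pdm2-RB were well above background, so no fold is given there. In c564>nub-RB the log2 difference was 3.50, with rest arrays that entered the ratio by which the probe was named.

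A pair of probes reads the same Lcp65Ag3 transcript, a member of a family of near-identical copies at 65A whose RNA either probe may also bind, so the assignment to this copy is uncertain. Probe A_09_P220620 had signals of 32.4, 39.0 and 27.6 in c564>+ rest, 79.6, 89.8, 96.1 and 78.9 in c564>nub-RB rest, and 47.0, 51.0 and 18.1 in c564>Pdm2-RB rest. In gut it had 44.2, 76.3 and 356 in c564>+, 85.0, 103 and 70.8 in c564>nub-RB, and 31.8, 61.5 and 30.6 in c564>Pdm2-RB. Its highest array of all 19 was again c564>+ gut replicate 4. The c564>nub-RB arrays gave rest minus gut of 0.01, with overlapping tissues. In c564>+ rest minus gut was -1.70 (SE 0.76, adjusted p = 0.087, limma) and -0.83 without that array.

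Probe A_09_P048851 followed the same course. Its signals were 13.4, 12.0 and 8.5 in c564>+ rest, 37.2, 25.8, 41.1 and 29.9 in c564>nub-RB rest, and 16.6, 20.7 and 6.91 in c564>Pdm2-RB rest. Gut gave 10.0, 27.6 and 103 in c564>+, 30.1, 43.2 and 32.02 in c564>nub-RB, and 10.2, 24.9 and 7.12 in c564>Pdm2-RB. The Pearson correlation of the pair over 19 arrays was 0.96. Both probes were higher on each c564>nub-RB gut array than on each c564>Pdm2-RB gut array, by 1.51 for A_09_P048851 and 1.12 for A_09_P220620 on the log2 scale, and neither probe passed the threshold for testing there.

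**Figure D3:**
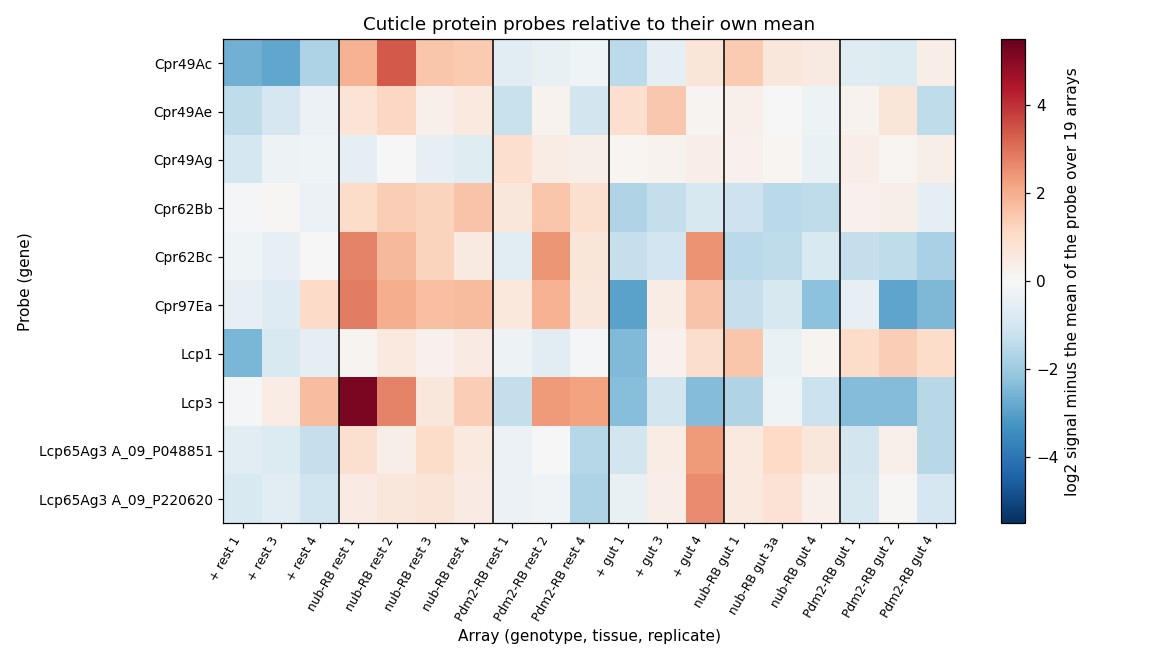
Log2 signal of each probe (rows) on each of the 19 arrays (columns, by group and replicate) minus the mean of that probe over all arrays, from blue (lower) to red (higher), with black lines between groups. The c564>nub-RB rest columns are red for most probes, which is how 9 of them were named, and c564>+ gut replicate 4 is red for Cpr62Bc and both Lcp65Ag3 probes.

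Between tissues, most probes of the array differed. Of 17515 probes tested in c564>+, 59.4% were called at 1%, and 1 of 4 tested members. In c564>nub-RB 58.3% of the tested probes and 2 of 4 members were called, and in c564>Pdm2-RB 60.8% and 0 of 4, with 2 of these 4 and 77% of the tested probes at an unadjusted p under 0.05 in limma. The calls were Cpr62Bb in both of the first genotypes and Cpr62Bc in c564>nub-RB, all higher in rest. Cpr62Bc passed the threshold there through rest alone, which favors that direction. Both probes were named by a ratio that the c564>nub-RB rest arrays entered.

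Over all 10 members, tested or not, the median of rest minus gut was -0.82 in c564>+, 0.94 in c564>nub-RB and 0.21 in c564>Pdm2-RB, beside 0.15, 0.19 and 0.18 over all probes of the array. Without c564>+ gut replicate 4 the c564>+ median was -0.40. The first 2 medians contain the rest groups whose ratio named 9 of the 10 members, so they are descriptions. In c564>+ 2 members were higher and 4 lower in rest without overlap, in c564>nub-RB 5 and 0, and in c564>Pdm2-RB 4 and 1. Such counts, here and below, include members under the threshold, whereas the shares set beside them are of tested probes alone. Among all tested probes 47% were higher and 30.9% lower without overlap in c564>+, 45.8% and 28.2% in c564>nub-RB, and 49.1% and 30.1% in c564>Pdm2-RB. The median of the tested probes shifted with the scaling, from 0.33 to -0.07 in c564>+, 0.33 to 0.08 in c564>nub-RB and 0.40 to 0.01 in c564>Pdm2-RB when arrays were scaled to their 75th percentile. Under that scaling Cpr62Bb rest minus gut in c564>+ was 0.57 and not called.

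Between genotypes in rest, c564>nub-RB against c564>+ called 4.31% of the probes and 1 of 4 tested members, Cpr62Bb. All 10 members were higher, a direction that the naming fixed for 9. Of the 10, tested or not, 8 did not overlap, beside 14.9% of the tested probes higher without overlap. The muscle, fat body and hemocyte marker lists moved the same way, and the midgut list the opposite way, in the same arrays. Summed signal of 5 muscle genes (of 14 listed) was 51970 to 130265 in c564>nub-RB rest and 7737 to 35799 in c564>+ rest, with 16271 to 39708 in c564>Pdm2-RB rest. For 3 fat body genes (of 9) it was 1868 to 19568 against 408 to 721, with 2553 to 6062 in c564>Pdm2-RB rest. For 5 hemocyte genes (of 7) it was 37139 to 57306 against 5352 to 11244, with 15368 to 25120 in c564>Pdm2-RB rest. The fat body and hemocyte sums of c564>Pdm2-RB rest thus also lay above c564>+ rest without overlap. The part of these marker lists in the cuticle values was not tested. Most of their probes owe their names to the study's tables of changed genes, which were chosen by c564>nub-RB rest against c564>+ rest. The direction of the sums in that contrast is therefore no finding. The c564>Pdm2-RB sums are set against the same c564>+ rest arrays.

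For c564>Pdm2-RB against c564>+ in rest 0.863% of the probes and 0 of 4 tested members were called, with 2 members, Cpr49Ag and Cpr62Bb, and 17.6% of the tested probes at an unadjusted p under 0.05 in limma. All 10 members had a higher mean in c564>Pdm2-RB, with a median of 1.02 against 0.02 over all probes, and 3 (Cpr49Ac, Cpr49Ag and Cpr62Bb) did not overlap, beside 13.7% of the tested probes higher without overlap. This contrast shares the c564>+ rest arrays with the one that named 9 members. The direct contrast of c564>nub-RB and c564>Pdm2-RB in rest called 0.99% of the probes and 0 of 4 tested members, with 2 members and 22.7% of the tested probes at an unadjusted p under 0.05 in limma. There 5 members were higher in c564>nub-RB without overlap, and Cpr49Ag was lower, beside 8.92% and 13.5% of the tested probes. All 5 were named by a ratio that the c564>nub-RB rest arrays entered, so their direction here is not free of the naming.

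In gut 0.497% of the probes were called for c564>nub-RB against c564>+, 0.344% for c564>Pdm2-RB against c564>+ and 0.339% for c564>nub-RB against c564>Pdm2-RB, and 0 members in each, of 4, 4 and 3 tested. At an unadjusted p under 0.05 in limma the members numbered 0, 1 and 1, the 1 being Cpr62Bb both times, beside 18.3%, 17.2% and 12.7% of the tested probes. Every member overlapped between c564>nub-RB gut and c564>+ gut, beside 14.3% of the tested probes higher and 10.8% lower without overlap. The median difference over the 10 was -0.14, and 0.35 without c564>+ gut replicate 4. These arrays are free of the naming. For c564>Pdm2-RB against c564>+ in gut the median was -0.61, with Cpr62Bb and Lcp1 higher and Cpr62Bc lower without overlap, beside 12.3% and 11.7% of the tested probes. Without c564>+ gut replicate 4 the median was -0.38, and the Cpr62Bc difference changed from -1.55 to -0.34. For c564>nub-RB against c564>Pdm2-RB in gut 3 members were higher and 1 lower without overlap, beside 11.2% and 6.91% of the tested probes.

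**Figure D4:**
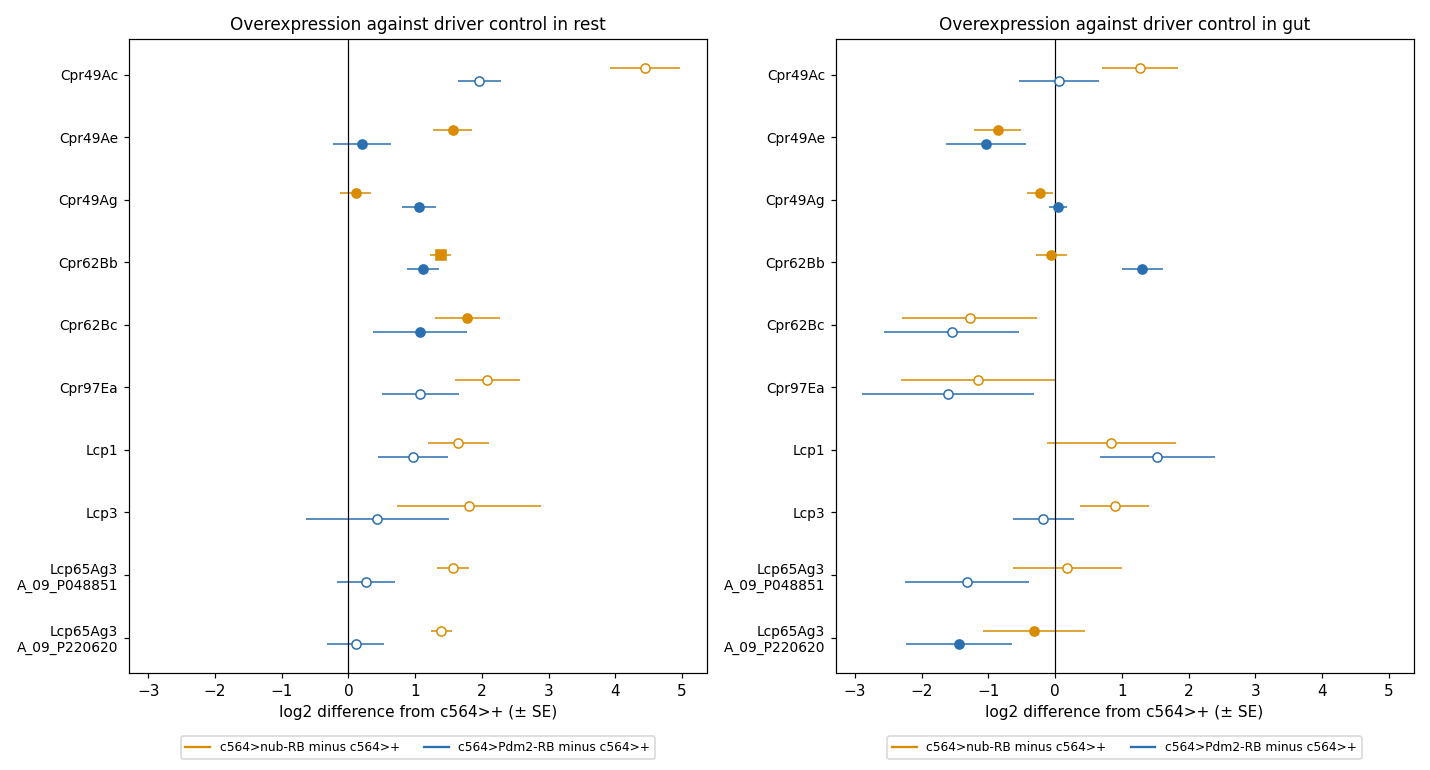
Difference of mean log2 signal from c564>+ (x axis, ± SE) for c564>nub-RB and c564>Pdm2-RB in rest (left) and gut (right), by probe (y axis). Both lines are set against the same c564>+ arrays. Symbols are squares where called, filled circles where tested and not called, and open circles where under the threshold. In rest all points lie right of 0, and in gut they lie on both sides.

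The interaction of genotype and tissue asked whether rest minus gut differed from that of c564>+. It called 0.824% of the probes for c564>nub-RB and 0.195% for c564>Pdm2-RB, and 0 of 5 tested members in each. At an unadjusted p under 0.05 in limma there were 3 members for c564>nub-RB, namely Cpr49Ae (2.42), Cpr62Bb (1.44) and Cpr62Bc (3.07), and 1 for c564>Pdm2-RB, Cpr49Ag (1.02, SE 0.31, adjusted p = 0.222, limma), beside 26.6% and 11.9% of the tested probes. The c564>nub-RB term was above 0 for all 10 members, with a median of 1.58 against -0.06 over all probes, and it rests on both rest groups that named 9 of them. Without c564>+ gut replicate 4 the median was 1.20 and the Cpr62Bc term 1.86.

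Other genes of cuticle biology that could be named were 17, on 21 probes, nearly all through the same rows. Of 12 of these probes tested in c564>+ 7 were called lower in rest than in gut and 0 higher, in c564>nub-RB 4 of 11 lower and 2 higher, and in c564>Pdm2-RB 5 of 10 lower and 0 higher. Over all probes 4093 of 17515 tested were called lower and 6316 higher in c564>+. The same counts were 3926 and 6209 of 17371 in c564>nub-RB, and 3987 and 6623 of 17460 in c564>Pdm2-RB. The ratio behind the names favors low c564>+ rest and high c564>nub-RB rest signals. The cuticle counts in c564>+ and c564>nub-RB are thus not free of the naming. The medians over the tested cuticle probes were -2.23, -0.11 and -0.90, beside 0.33, 0.33 and 0.40 over all tested probes. TwdlB and Vajk1 were tested in c564>+ through 1 gut array each, with 577 and 662 there. On the other c564>+ gut arrays TwdlB had 1.67 and 2.24, and Vajk1 5.74 and 26.3.

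The genes called in c564>+ were Pcp, which encodes a pupal cuticle protein, Chs2, a chitin synthase, ple, the tyrosine hydroxylase of melanization and sclerotization, yellow-d of the yellow family, and Idgf1, a chitinase-like growth factor. Signals of Pcp were 4887 to 9496 in c564>+ gut and 39.1 to 85.6 in rest, and rest minus gut was -7.00 in c564>+ (SE 0.38, adjusted p = 5.41e-05, limma). Chs2 probe A_09_P066401 had 4642 to 7646 in c564>+ gut and 46.7 to 151 in rest. In c564>+ Pcp and both Chs2 probes passed the threshold for testing through gut alone, as did Pcp in c564>Pdm2-RB. Such a filter favors the direction of these calls. Probe A_09_P011581 of ple had 3102 to 5979 in c564>+ gut and 780 to 1061 in rest. Pcp, Chs2 and ple were also called lower in rest in c564>Pdm2-RB, and Pcp, Chs2 and yellow-d in c564>nub-RB. Idgf1 was nearer in both tissues, with 5344 to 7325 in c564>+ gut and 2832 to 4047 in rest for probe A_09_P032356. The yellow-d signal was 25706 to 29421 in c564>+ gut and 2419 to 3810 in c564>+ rest, with rest minus gut of -3.18 (SE 0.19, adjusted p = 7.22e-05, limma).

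In rest yellow-d rose to 20704 to 34025 in c564>Pdm2-RB, without overlap with either other genotype. Its difference from c564>+ rest was 3.07 (SE 0.24, adjusted p = 0.00254, limma), and its interaction of 2.97 (adjusted p = 0.00199, limma) was called. In c564>nub-RB rest the yellow-d signal was 8050 to 10433. The c564>+ rest arrays entered the ratio that named yellow-d, so neither its difference from c564>+ rest nor its interaction is free of the naming. The yellow-d probe was also among the 3 whose course over the arrays was most like that of Cpr49Ag.

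Likeness was measured as the Pearson correlation of log2 signals over 19 arrays with 835 named probes. Closest to Cpr49Ag were PH4alphaSG1, a prolyl 4-hydroxylase subunit (0.78), yellow-d (0.69) and CG9021 (0.68). For Cpr62Bb they were CG17107 (0.91), CG16957 (0.91) and CG14406 (0.89), and for Cpr62Bc CG17104 (0.83), the adult cuticle protein gene Acp65Aa (0.79) and NimB4 (0.78), a Nimrod family gene. Cpr49Ae had firl (0.76), Cys (0.75), which encodes a cystatin-like protease inhibitor, and Lsp1gamma (0.70), a larval serum protein. For A_09_P220620 of Lcp65Ag3 they were CG15239 (0.75), the cathepsin gene CtsL2 (0.73) and firl (0.68). Nearly all compared probes were named through the same ranked rows, and the points share the 6 groups.

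Acp65Aa, which ran with Cpr62Bc, had signals of 270 to 1115 in c564>nub-RB rest and 74.8 to 88.1 in c564>nub-RB gut. Rest minus gut was 2.68 (SE 0.50, adjusted p = 0.00234, limma) in that genotype, next to 2.80 for Cpr62Bc. Like Cpr62Bc, Acp65Aa passed the threshold there through rest alone and was named by a ratio that the c564>nub-RB rest arrays entered. In c564>+ Acp65Aa had 141 to 163 in rest and 53.1 to 104 in gut, and the difference of 0.91 was not called. The other gene called higher in rest in c564>nub-RB was Idgf5, also of the chitinase-like family, with 205 to 681 in c564>nub-RB rest and 22.3 to 47.6 in gut. It too passed the threshold there through rest alone. Its c564>nub-RB gut level lay below the 693 to 1798 of c564>+ gut by a log2 difference of -5.02 (SE 0.44, adjusted p = 0.00857, limma). Idgf5 was named through the study's list of probes changed between these genotypes in both tissues, so that difference is no finding.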

How the data were processed

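The deposited intensities were made by the authors with Agilent Feature Extraction 10.7.3.1, which subtracted background and marked each spot for quality. The authors then quantile-normalized these signals in Partek, and their table of normalized signal was used as an alternative. Here control spots and the 46 to 87 spots per array marked as outliers were left out, signals were averaged per probe, quantile-normalized over 19 arrays in R 4.3.3 and log2-transformed, and 99.9% of the values lay within 0.01 of the authors' table on the log2 scale. Probes above a mean of 130 in a compared group were tested with limma 3.58.1 (lmFit and eBayes) on the compared arrays, at a Benjamini-Hochberg rate of 1% over all tested probes.

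A probe that was not well above background on any array of a group has only a bound there. Bounds take the lowest signal well above background on each array, or the probe's own if higher, as the dim level. No spot was saturated, and the number of arrays limits the precision. Replicates were independent pools of flies, and p-values measure the spread between pools. Of 1245 named probes, 324 were named by RefSeq accession through a reference gene table and 921 by the study's tables. That reference is of another build than the array design, and was used for names and neighbours only.

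The members and gene lists were chosen with earlier results of these data known. Named genes were all 10 member probes, the other cuticle genes called in a comparison (no comparison called more than 6 of them), and the 3 named probes most alike to each member above the threshold. The limma fit was tested on simulated data with known changes. Array positions on 6 slides and 2 scan dates served as batches. The alternatives were scaling to the 75th percentile, normexp correction with an offset of 50 and a threshold of 180, the authors' values, no threshold, a filter on background, 1 model of 6 groups, slide, scan date and replicate number as blocks, the methods' t-test, and leaving out each array. Figures were drawn with matplotlib 3.10.9.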

Additional observations from a re-analysis of the deposited data

Results flagged for a closer look

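The rest-to-gut difference of Cpr49Ae ran in opposite directions in c564>+ and c564>nub-RB. All 3 rest arrays were below all 3 gut arrays in c564>+, and all 4 rest arrays were above all 3 gut arrays in c564>nub-RB. The interaction was 2.42 on the log2 scale (SE 0.49, adjusted p = 0.0184, limma), which missed 1%, and over 22 alternatives its adjusted p ran from 0.0108 to 0.0694. It rests in part on the 2 rest groups by whose ratio the probe was named.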

How the results depend on the processing

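Over differences of single members under alternatives other than leaving out an array, 386 kept their direction and side of the threshold, 11 passed it newly, 9 no longer passed it, and 5 changed sign. The latter were all small: Cpr49Ag for rest minus gut in c564>nub-RB was 0.0133 with scan date as a block. For c564>nub-RB minus c564>+ in rest Cpr49Ag was -0.0278 with the replicate block. Cpr49Ae for c564>Pdm2-RB minus c564>+ in rest was -0.0234 with scan date as a block and -0.26 with the replicate block. The c564>Pdm2-RB interaction of Cpr62Bb was 0.0273 under 75th percentile scaling.

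The number of members called moved as follows. For rest against gut in c564>+ (1) it was 2 under 75th percentile scaling and under normexp and 3 in the model of 6 groups. It was 0 with the replicate block and with the methods' t-test. The 2 under 75th percentile scaling did not include Cpr62Bb, the member called in the main fit. Over 15 alternatives, leaving out arrays included, Cpr49Ae was called in 4 and Cpr49Ag in 2, both lower in rest. In c564>nub-RB (2) the number was 3 without a threshold, with Cpr97Ea added. It was 1 under normexp, scan date as a block, the replicate block and the methods' t-test. In c564>Pdm2-RB (0) it was 1 without a threshold, with the background filter and in the model of 6 groups. For c564>nub-RB against c564>+ in rest (1) it was 3 without a threshold, 4 with the background filter, 2 with slide and with scan date as a block, and 0 with the replicate block and the methods' t-test. In gut the model of 6 groups called 1 member, Cpr62Bb, for c564>Pdm2-RB against c564>+ and for c564>nub-RB against c564>Pdm2-RB, where the main fit called 0. The c564>nub-RB interaction had 1 under 75th percentile scaling, Cpr62Bb. The causes were not tested.

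Leaving out each array gave 0 to 2 members for rest against gut in c564>+, 2 in c564>nub-RB, 0 to 1 in c564>Pdm2-RB, 0 to 2 for c564>nub-RB against c564>+ in rest, and 0 otherwise. Some small differences changed sign when 1 array was left out, and their ranges were -0.13 to 0.24 for Cpr49Ag (c564>nub-RB minus c564>+, rest), -0.23 to 0.48 for Cpr49Ae (c564>Pdm2-RB minus c564>+, rest), -0.25 to 0.14 for Cpr62Bb (c564>nub-RB minus c564>+, gut), -0.0161 to 0.12 for Cpr49Ag (c564>Pdm2-RB minus c564>+, gut), -0.42 to 0.59 for Cpr49Ae (c564>nub-RB minus c564>Pdm2-RB, gut), and -0.45 to 0.00319 for Cpr62Bb (c564>Pdm2-RB interaction).

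Correlations of the deviations of same-numbered arrays ran from -0.47 to 0.65. The lowest pair lay at 0.0764 or below in each comparison with 3 shared numbers, and c564>Pdm2-RB against c564>+ in gut had only 2, with 0.65 and 0.41, so the numbers were not taken as pairs. The slide block was run for 4 of 11 comparisons, as the others gave no estimate of the correlation within slides. Signals of 5 members stayed under the threshold, and for Lcp1, Lcp3 and Cpr97Ea many arrays were not well above background, so their values are poorly determined.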
